A study of Homo sapiens with 18 samples.

Results

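Cells of the line MSC-hTERT that carried the fusion gene SRF-FOXO1 were compared with cells of the same line that carried the fusion gene SRF-PDGFRB, by counting RNA over all genes. The comparison holds 6 of the 18 libraries of the study, SRF-FOXO1 replicates 1 to 3 against SRF-PDGFRB replicates 1 to 3, chosen by their column names alone, and 18544 of the 61487 gene identifiers had enough counts to be tested. MSC-hTERT is an immortalized human mesenchymal stem cell line, and hTERT is the catalytic subunit of human telomerase, which lets such cells keep dividing. All groups were grown in MEM alpha medium with 10% serum, L-glutamine and antibiotics, to which ascorbic acid (0.2 mM), heparin (2 U/ml) and the growth factor FGF-2 (1 ng/ml) had been added. Another group of 3 libraries, labelled pMSCV after a retroviral vector, is given beside them as the vector group. The remaining groups (SRF, SRF-ICA1L and SRF-RELA) were not compared. They entered the choice of tested genes, the scaling between libraries, the mean level of a gene and the estimate of the spread. Where the replicate number was part of the model, they also entered the estimate of its effect. The labels give 1 cell line and do not say whether replicates are separate cultures or transductions, so the p-values measure the spread between these libraries, which may be technical.

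Serum response factor (SRF) binds DNA at the CArG box, a short A- and T-rich element in front of 2 kinds of genes: contractile and cytoskeletal genes, which it drives with myocardin and the myocardin-related factors, and immediate early genes, which it drives with ternary complex factors downstream of ERK signalling. FOXO1 is a forkhead transcription factor with a strong activation domain, and PDGFRB is the beta receptor for platelet-derived growth factor, a receptor tyrosine kinase. Fusions of SRF occur in soft tissue tumours with muscle-like features. Interferon turns on chemokine, APOL and guanylate-binding protein genes, and interferon gamma also induces CIITA, the master regulator of MHC class II genes. STAT5 acts on feedback genes such as CISH and SOCS2.

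Sequences in front of 4 of the genes described below are shown because they hold the elements of these 2 kinds of control: CArG boxes at 3 actin genes that were higher in SRF-FOXO1, and the STAT core motif TTCNNNGAA at CISH, which was lower. Each is the 250 bases before the RefSeq gene start in GRCh38.p14, read 5′ to 3′ on the gene's strand, and capitals mark the matches. Both motifs read the same on either strand. The windows are chr2:73892758-73893007 on the plus strand for ACTG2 and, on the minus strand, chr15:34795550-34795799 for ACTC1, chr1:229434095-229434344 for ACTA1 and chr3:50611775-50612024 for CISH.
ACTG2: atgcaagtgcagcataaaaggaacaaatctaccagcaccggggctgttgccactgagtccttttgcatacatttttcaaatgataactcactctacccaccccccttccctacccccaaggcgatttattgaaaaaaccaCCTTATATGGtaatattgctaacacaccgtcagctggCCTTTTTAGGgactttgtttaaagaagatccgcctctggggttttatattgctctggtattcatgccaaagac
ACTC1: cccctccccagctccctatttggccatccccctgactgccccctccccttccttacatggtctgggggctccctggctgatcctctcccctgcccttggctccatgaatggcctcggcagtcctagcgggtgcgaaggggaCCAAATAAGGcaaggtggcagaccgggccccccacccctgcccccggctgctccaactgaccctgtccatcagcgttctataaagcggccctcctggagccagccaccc
ACTA1: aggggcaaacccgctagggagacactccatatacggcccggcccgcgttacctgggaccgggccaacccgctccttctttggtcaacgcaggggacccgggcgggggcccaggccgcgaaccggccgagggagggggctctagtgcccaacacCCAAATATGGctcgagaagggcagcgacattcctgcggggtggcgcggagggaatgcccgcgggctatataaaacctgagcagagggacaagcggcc
CISH: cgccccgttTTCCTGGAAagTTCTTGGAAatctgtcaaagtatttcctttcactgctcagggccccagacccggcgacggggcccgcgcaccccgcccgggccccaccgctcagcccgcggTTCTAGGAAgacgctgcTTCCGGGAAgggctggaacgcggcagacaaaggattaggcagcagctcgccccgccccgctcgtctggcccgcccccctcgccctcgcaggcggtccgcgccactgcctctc
The ACTG2 window holds 2 CArG boxes, which begin 110 and 73 bases before the start, and the ACTC1 and ACTA1 windows hold 1 each, at 109 and 97 bases. The CISH window holds 4 copies of TTCNNNGAA, at 241, 230, 129 and 112 bases. Over 27305 RefSeq windows of this length 1.14% hold a CArG box and 6.78% hold TTCNNNGAA. A match describes the letters and is not evidence of binding.

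SRF-FOXO1 libraries had more RNA of smooth muscle and striated muscle actins, of CMKLR1, COL11A1, CDH3 and PDGFB, and less RNA of CXCL9, APOL4, CISH and the MHC class II genes HLA-DRA, HLA-DPA1 and CD74 than SRF-PDGFRB libraries. With edgeR's quasi-likelihood test and Benjamini-Hochberg adjustment over the tested genes, 133 genes (0.717% of those tested) passed an adjusted p-value of 0.05, 105 (0.566%) higher and 28 (0.151%) lower in SRF-FOXO1. When the replicate number was a block in the same model, 806 genes (4.35%) passed, 533 (2.87%) higher and 273 (1.47%) lower. All 133 genes were among the 806, none in the opposite direction. Of the 533, 529 were higher in each of the 3 same-numbered pairs of libraries, and 272 of the 273 were lower in each pair. Genes that pass with the block are likely to differ in 1 direction in each pair, so these counts are not separate support. The share over all tested genes is not given here. The median log2 fold change was 2.24 over the 105 genes and -1.93 over the 28, against 0.02 over all tested genes. In CPM the libraries of all 133 were apart, higher without overlap for the 105 and lower for the 28, against 6.13% and 15.4% of all tested genes. In TMM-scaled CPM all 133 were apart too, against 10.9% and 9.74%, and genes that pass the test are likely to be apart. By RefSeq, 88 of the 105 and 27 of the 28 are protein coding.

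The count without the block depended on single libraries. It was 292, 42 and 101 without SRF-FOXO1 replicate 1, 2 or 3, and 14, 28 and 23 without SRF-PDGFRB replicate 1, 2 or 3. With the block it was 467, 141 and 252 without the libraries numbered 1, 2 or 3 in all 6 groups. When libraries were scaled by total count, 151 genes passed, 102 higher and 49 lower, so that 67.5% were higher against 78.9% with TMM scaling. Among the 105 higher genes SRF-FOXO1 replicate 2 was the highest of its group for 85 and replicate 1 the lowest for 77, whereas over all tested genes these shares were 26.8% and 31.9%. The 3 SRF-FOXO1 libraries thus did not hold these genes at 1 level.

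**Figure D1:**
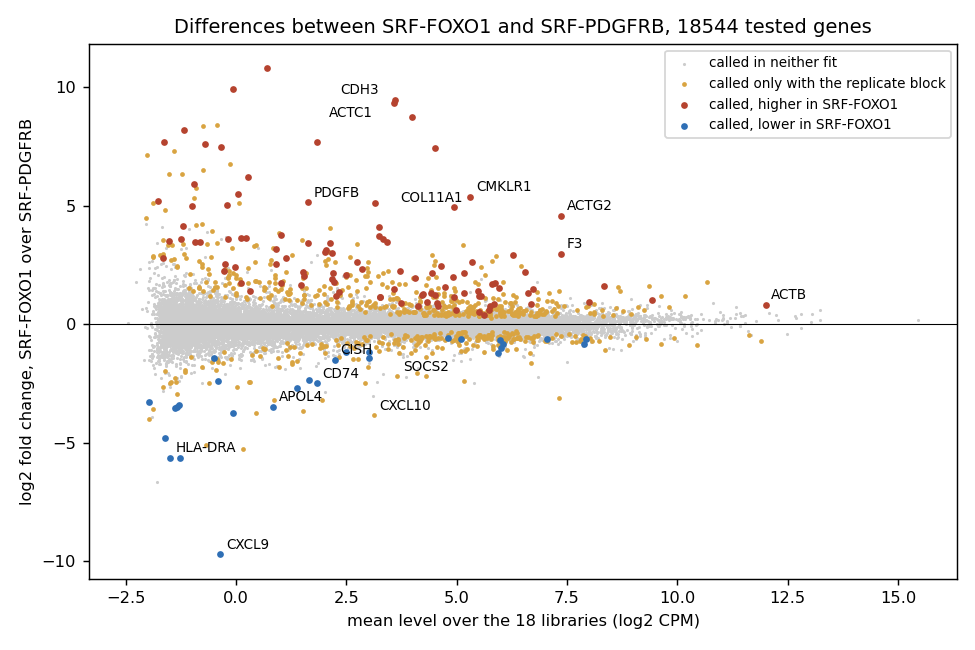
Log2 fold change of SRF-FOXO1 over SRF-PDGFRB (vertical axis) against the mean log2 CPM over the 18 libraries (horizontal axis), 1 point per tested gene. Red and blue points are the 105 higher and 28 lower genes called without the replicate block, orange points those called only with it, and grey points the rest; CDH3 and ACTC1 lie near the top and CXCL9 at the bottom.

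The construct genes were read first, in CPM, which scales each count by the total of its library. SRF was at 151, 211 and 183 CPM in SRF-FOXO1 replicates 1 to 3 and at 337, 160 and 261 CPM in SRF-PDGFRB, against 61.1, 64.4 and 57.3 CPM in pMSCV. All 6 fusion libraries were above all vector libraries, with adjusted p-values of 0.00511 for SRF-FOXO1 and 0.00177 for SRF-PDGFRB against pMSCV. Between the fusions SRF libraries overlapped and the log2 fold change was -0.38 (SE 0.23, adjusted p = 0.441, with the block 0.328). A count of SRF joins reads of the native gene and of the construct.

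FOXO1 was at 14.4, 7.63 and 7.35 CPM in SRF-FOXO1, at 18.5, 10.6 and 7.95 CPM in SRF-PDGFRB and at 17.5, 10.9 and 9.45 CPM in pMSCV. The groups overlapped, and the log2 fold change between the fusions was -0.27 (SE 0.37, adjusted p = 0.757, with the block 0.396). FOXO1 counts therefore do not check the SRF-FOXO1 label. PDGFRB was at 315, 420 and 368 CPM in SRF-FOXO1 and at 930, 526 and 673 CPM in SRF-PDGFRB, with 502, 392 and 381 CPM in pMSCV. Each SRF-PDGFRB library was above each SRF-FOXO1 and each vector library. The log2 fold change of PDGFRB between the fusions was -0.86 (SE 0.23, adjusted p = 0.101), and of these 2 fits only that with the block passed (0.0218). Against pMSCV the PDGFRB difference was 0.73 for SRF-PDGFRB (adjusted p = 1, with the block 0.218).

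The smooth muscle contractile genes that passed the test were higher in SRF-FOXO1. Of 24 genes listed, 20 were tested, and 2 of them, ACTG2 and ACTA2, rose (none fell), against 0.566% of all tested genes. With the block 10 rose and none fell, against 2.87%. The median log2 fold change over the 20 was 1.35, and 19 of the 20 fold changes were above 0. The exception was MYLK, the kinase that phosphorylates myosin light chain, at -0.28 (adjusted p = 0.732); it was at 0.037 without SRF-PDGFRB replicate 1 and, with the block, at 0.17 without the libraries numbered 1. The 4 untested genes, DES, KCNMB1, ITGA8 and HSPB6, were at most at 1.10 CPM in the 6 libraries.

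ACTG2, the gamma actin of enteric smooth muscle (chr2:73893008-73919865), was at 396, 590 and 485 CPM in SRF-FOXO1 and at 11.1, 24.4 and 30.7 CPM in SRF-PDGFRB. All SRF-FOXO1 libraries lay more than an order of magnitude above the SRF-PDGFRB libraries. In pMSCV it was at 1.52, 7.61 and 11.4 CPM, each below the SRF-PDGFRB library of the same number. Its log2 fold change was 4.58 (SE 0.81, adjusted p = 0.0199, with the block 0.000848). ACTA2, the alpha actin of vascular smooth muscle (chr10:88935074-88991337), was at 69.6, 348 and 135 CPM against 17.3, 31.4 and 29.9 CPM, with 15.4, 15.2 and 21.5 CPM in pMSCV. The ACTA2 groups did not overlap, replicate 2 of SRF-FOXO1 was the highest, and the log2 fold change was 2.94 (SE 0.59, adjusted p = 0.0361, with the block 0.00669). Both calls without the block were lost when SRF-FOXO1 replicate 2 or any 1 of the 3 SRF-PDGFRB libraries was left out, with largest adjusted p-values of 0.113 for ACTG2 and 0.169 for ACTA2; 6 members of the list passed without SRF-FOXO1 replicate 1.

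The other 8 members passed only with the block. LMOD1, a leiomodin that nucleates actin filaments, was at 14.4, 76.3 and 38.5 CPM in SRF-FOXO1 against 3.90, 9.41 and 5.22 CPM in SRF-PDGFRB. Its libraries did not overlap, and it narrowly missed the threshold without the block (adjusted p = 0.0504, with the block 0.000398). PPP1R12B, a regulatory subunit of myosin phosphatase, was at 30.1, 279 and 140 CPM against 21.4, 22.3 and 22.2 CPM, a narrow SRF-PDGFRB group below a wide SRF-FOXO1 group (log2 fold change 2.89, SE 0.63, adjusted p = 0.0512, with the block 0.0217). SYNPO2, an actin-binding protein of the Z-disc and dense bodies, had a log2 fold change of 2.11 (SE 0.48, adjusted p = 0.0577, with the block 0.000917). JPH2, which ties the plasma membrane to the sarcoplasmic reticulum, was at 17.9, 106 and 52.1 CPM against 6.89, 11.6 and 15.4 CPM (adjusted p = 0.134, with the block 0.00319).

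CNN1, the smooth muscle calponin, was at 18.96, 91.3 and 48.9 CPM in SRF-FOXO1 and at 10.2, 26.2 and 24.1 CPM in SRF-PDGFRB. Replicate 1 was the lowest library in both groups and replicate 2 the highest, so the groups overlapped while each same-numbered pair differed in 1 direction. Its log2 fold change was 1.52 (SE 0.66, adjusted p = 0.304) without the block and 1.36 (SE 0.27, adjusted p = 0.0116) with it. TAGLN, the actin-binding protein transgelin, was at 359.5, 1182 and 592.0 CPM against 173, 292 and 313 CPM (adjusted p = 0.253, with the block 0.0135). TPM1, a tropomyosin, had a log2 fold change of 1.18 (adjusted p = 0.142, with the block 0.0107). MYH11, the smooth muscle myosin heavy chain, was at 1.38, 14.6 and 5.32 CPM against 0.766, 1.13 and 1.19 CPM, without overlap, and passed neither fit (log2 fold change 2.92, SE 0.90, adjusted p = 0.166, with the block 0.0609).

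Striated muscle genes were mostly not expressed: 13 of 39 listed genes were tested, and the 26 others, with MYOD1, MYOG and the cardiac myosins MYH6 and MYH7 among them, were at most at 0.470 CPM in the 6 libraries. ACTC1, ACTA1 and TNNC1 rose without the block, and ANKRD1 and LDB3 also rose with it, against 0.566% and 2.87% of all tested genes. TNNC1 had a mean of at most 0.230 CPM in every group other than SRF-FOXO1. It was thus tested largely through the libraries where it was high and could hardly have come out as lower in SRF-FOXO1. ACTC1, cardiac alpha actin (chr15:34790230-34795549), was at 2.25, 115 and 29.8 CPM in SRF-FOXO1, at 0.0348, 0.0343 and 0.207 CPM in SRF-PDGFRB and at 0 in each vector library. ACTA1, skeletal alpha actin (chr1:229431245-229434094), was at 2.85, 110 and 13.3 CPM against 0.139, 0.0343 and 0.155 CPM. For both, every SRF-FOXO1 library was above every SRF-PDGFRB library, and the SRF-FOXO1 libraries ran over more than an order of magnitude among themselves. Their log2 fold changes were 9.34 for ACTC1 (SE 1.85, adjusted p = 0.0416, with the block 0.000397) and 8.74 for ACTA1 (SE 1.66, adjusted p = 0.0258, with the block 0.000759). None of the 3 calls of this list without the block was kept without any 1 of the SRF-PDGFRB libraries; without SRF-FOXO1 replicate 2 none of the members rose and 1 fell, and without SRF-FOXO1 replicate 3 only 1 rose. The coding sequences of muscle actins are near identical, and reads shared by ACTA1, ACTA2, ACTC1 and ACTG2 could have been split between them.

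XIRP1, a protein of cardiac intercalated discs and growing myofibrils, went the other way. It was at 0.101, 1.17 and 0.185 CPM in SRF-FOXO1 and at 15.8, 2.16 and 3.41 CPM in SRF-PDGFRB, and 0.0354, 0 and 0 CPM in pMSCV. All SRF-PDGFRB libraries were above all SRF-FOXO1 libraries (log2 fold change -3.76, SE 0.90, adjusted p = 0.0712, with the block 0.0327). Its mean was at most 0.077 CPM in pMSCV, SRF, SRF-ICA1L and SRF-RELA. XIRP1 was thus tested largely through the libraries where it was high and could hardly have come out as higher in SRF-FOXO1. The XIRP1 call with the block was lost in 2 of the 3 fits that left out the libraries of 1 number in all groups (largest adjusted p 0.210).

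**Figure D2:**
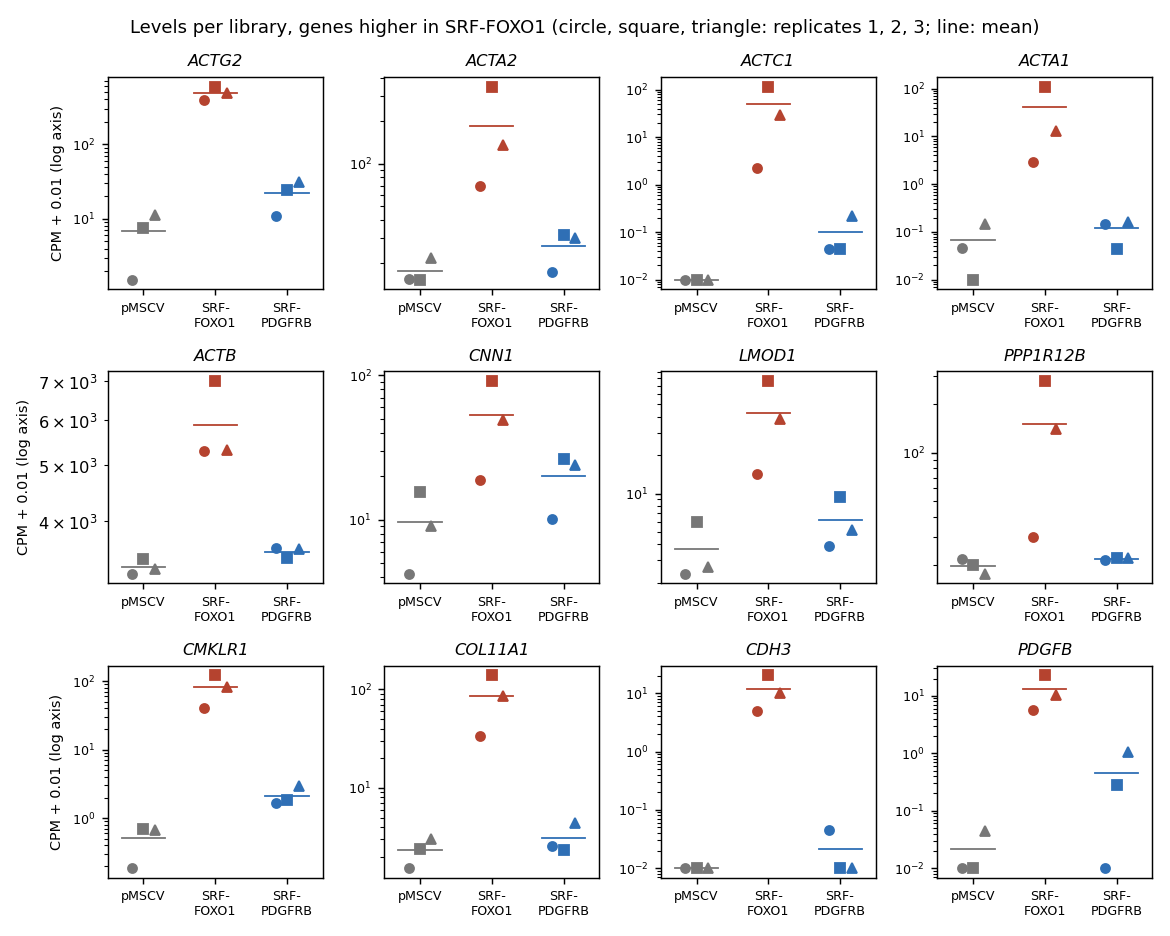
CPM plus 0.01 on a log axis in pMSCV (grey), SRF-FOXO1 (red) and SRF-PDGFRB (blue) for 12 genes higher in SRF-FOXO1; circles, squares and triangles are replicates 1, 2 and 3, and lines are group means. SRF-FOXO1 replicate 1 is the lowest red point for most of these genes, and for CNN1 it lies below 2 blue points.

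Genes of the general cytoskeleton differed less. Of 25 listed SRF targets, all tested, ACTB rose (log2 fold change 0.82, SE 0.17, adjusted p = 0.037, with the block 0.0138), and with the block 7 rose and none fell. Over all tested genes 0.566% rose without the block and 2.87% with it. ACTB, cytoplasmic beta actin, was at 5297, 6994 and 5321 CPM in SRF-FOXO1 and at 3591, 3451 and 3586 CPM in SRF-PDGFRB, a narrow group close to the 3246 to 3445 CPM of pMSCV. FHL1, PDLIM1, PDLIM5, PDLIM7, WDR1 and TRIP6, LIM-domain and actin-turnover proteins, had log2 fold changes between 0.34 and 0.89. The median over the list was 0.36, and 23 of 25 fold changes were above 0. The ACTB call was lost without SRF-FOXO1 replicate 2 or any 1 SRF-PDGFRB library (largest adjusted p 0.186). Under the block it failed in each fit that left out the libraries of 1 number in all groups.

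Immediate early genes, the other kind of SRF target, showed 1 call among 24 tested. Of all tested genes 0.717% passed without the block and 4.35% with it. BTG2, an antiproliferative early gene, was at 5.17, 5.83 and 4.996 CPM in SRF-FOXO1 and at 2.54, 1.99 and 2.01 CPM in SRF-PDGFRB, and the vector libraries lay between 2.84 and 4.32 CPM. The groups did not overlap, and the log2 fold change was 1.37 (SE 0.23, adjusted p = 0.0143, with the block 0.00146). EGR2 and EGR3, zinc finger factors induced by growth signals, rose only with the block (adjusted p = 0.0178 and 0.000972). EGR3 was at 48.5, 15.4 and 22.4 CPM against 16.5, 2.85 and 2.69 CPM, so replicate 1 was the highest in each group. None of the 24 fell in either fit, and BTG2 missed the threshold without SRF-FOXO1 replicate 2 or any 1 SRF-PDGFRB library (largest adjusted p 0.0968). Of 19 ERK feedback genes none passed without the block; with it the phosphatases DUSP2 and DUSP5 rose and SPRED1 and ETV1 fell. None of 7 genes for SRF and its cofactors passed in either fit.

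Of the 105 higher genes, 64 have a RefSeq window and 4 of these (6.25%) hold a CArG box, namely ACTA1, ACTC1, ACTG2 and RPE65, against 1.08% of tested genes. Of the 28 lower genes, 21 have a window and 1 of these (4.76%), KLHL42, holds a CArG box. With the block the share was 14 of 374 windows (3.74%) for the higher genes and 2 of 197 (1.02%) for the lower genes. ACTA2 and CNN1 have no match in this window, and the motif was chosen with the actins known to be higher.

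Outside the muscle lists, the largest higher genes among those with a mean of at least 1 log2 CPM included a chemokine-like receptor, a collagen, a cadherin and a growth factor. CMKLR1, the receptor for the chemoattractant chemerin (chr12:108288046-108339311), was at 41.1, 122 and 80.7 CPM in SRF-FOXO1, at 1.67, 1.82 and 2.89 CPM in SRF-PDGFRB and at 0.177, 0.688 and 0.658 CPM in pMSCV. COL11A1, a chain of fibrillar collagen XI (chr1:102876473-103108522), was at 33.9, 139 and 85.7 CPM against 2.54, 2.33 and 4.39 CPM, and the vector libraries at 1.52 to 3.05 CPM were near the SRF-PDGFRB level. In both genes all SRF-FOXO1 libraries were far above those of SRF-PDGFRB and pMSCV. The log2 fold changes were 5.39 (SE 0.61, adjusted p = 0.00224, with the block 1.65e-08) and 4.94 (SE 0.52, adjusted p = 0.00154, with the block 4.25e-05). These were the only named higher genes whose call held without each of the 6 libraries in turn, with largest adjusted p-values of 0.0334 and 0.0304. High levels were not particular to SRF-FOXO1. Mean CMKLR1 was 71.1 CPM in SRF-ICA1L and 74.0 CPM in SRF-RELA, and mean COL11A1 36.1 and 46.8 CPM. In the SRF group the means were 0.707 CPM for CMKLR1 and 3.80 CPM for COL11A1.

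CDH3, placental cadherin (chr16:68645310-68733771), was at 4.86, 20.4 and 10.1 CPM in SRF-FOXO1. It had 1 count over the 3 SRF-PDGFRB libraries, at 0.0348, 0 and 0 CPM, and none in pMSCV. The ratio of summed CPM was 888 with a 95% counting interval of 159 to 35106 (adjusted p = 0.0043, with the block 2.81e-07), and the adjusted p was 0.0507 without SRF-PDGFRB replicate 1. Of 18 tested cadherin and keratin genes, CDH3, KRT14 and KRT17 rose and none fell, against 0.566% and 0.151% of all tested genes. With the block 10 rose, against 2.87%, and CDH2, neural cadherin, fell (log2 fold change -0.54, adjusted p = 0.0276, both with the block). KRT17, a keratin of basal epithelium and skin appendages, was at 3.79, 30.8 and 11.8 CPM against 0.522, 0.343 and 0.620 CPM. KRT80 and KRT81 rose with the block, at log2 fold changes of 2.39 and 2.45 in that fit, and so did KRT8, KRT18, KRT15, CDH1 and CDH11, at 0.58 to 4.99. The count of 3 rose to 5 without SRF-FOXO1 replicate 1, was 2 without its replicate 2 or 3, and was 0, 1 and 1 without SRF-PDGFRB replicate 1, 2 or 3. Keratin genes resemble each other and have pseudogenes, so their reads could have been split.

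Among 4 epithelial markers, EPCAM, CDH1, KRT5 and CLDN3, the summed level was 0.604 to 1.41 CPM in SRF-FOXO1 and 0.0343 to 0.258 CPM in SRF-PDGFRB, without overlap, with KRT5 at 0 in all 6 libraries, and the mesenchymal marker VIM at 2343 CPM or more in each. KRT8 and KRT18, keratins of simple epithelia that are not in this sum, were at 36.9 to 52.3 and 55.9 to 172 CPM in SRF-FOXO1 and at 24.3 to 38.1 and 27.9 to 71.3 CPM in SRF-PDGFRB. The part of other cells in the keratin difference was not tested. Fewer cells with a gene on and less RNA per cell cannot be told apart in bulk libraries.

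PDGFB, the B chain of platelet-derived growth factor and a ligand of PDGFRB (chr22:39223359-39244982), was at 5.64, 22.8 and 10.4 CPM in SRF-FOXO1 and at 0, 0.275 and 1.03 CPM in SRF-PDGFRB, and at 0, 0 and 0.0346 CPM in pMSCV. The lowest SRF-FOXO1 library was above the highest SRF-PDGFRB library (log2 fold change 5.15, SE 0.86, adjusted p = 0.0147, with the block 0.000104). The call was lost without SRF-PDGFRB replicate 1 or 2, with a largest adjusted p of 0.102. PDGFA, the A chain, was at 18.8, 28.5 and 16.9 CPM against 11.6, 13.97 and 10.9 CPM and rose only with the block (log2 fold change 0.91, SE 0.35, adjusted p = 0.258, with the block 0.0146). Of the 6 tested PDGF ligands and receptors, PDGFRB was the only 1 that fell with the block, and PDGFC, PDGFD and PDGFRA passed neither fit. PDGFRB is the fusion partner, and its counts in SRF-PDGFRB may include reads of the construct. Of all tested genes 0.566% rose without the block, and with it 2.87% rose and 1.47% fell.

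Further ranked higher genes were NRXN3 (neurexin, a synaptic adhesion molecule), RPE65 (retinoid isomerase of the retinal pigment epithelium), ALPL (tissue-nonspecific alkaline phosphatase) and CD70 (ligand of the lymphocyte receptor CD27). ALPL was at 40.8, 26.0 and 28.4 CPM in SRF-FOXO1, with replicate 1 the highest, and at 2.82, 0.412 and 2.74 CPM in SRF-PDGFRB (log2 fold change 4.09, SE 0.70, adjusted p = 0.0163, with the block 0.00244). CD70 was at 4.63, 9.87 and 5.60 CPM against 0.871, 0.481 and 0.155 CPM (log2 fold change 3.77, adjusted p = 0.00996, at most 0.0681 in fits without 1 library). NRXN3 was at 7.78, 103 and 20.5 CPM against 0.174, 0.309 and 0.362 CPM, which again placed replicate 2 far above the others. Bone, fat and cartilage lineage genes held 6 tested of 16, and ALPL and PPARG, the nuclear receptor of fat cells, rose. The share over all tested genes was 0.566%. PPARG was at 0.570, 3.17 and 1.16 CPM against 0, 0.137 and 0 CPM. Its mean was at most 0.310 CPM in every group other than SRF-FOXO1. PPARG was thus tested largely through the libraries where it was high and could hardly have come out as lower in SRF-FOXO1. The count of this list is therefore partly set by the filter. RUNX2, the osteoblast factor, fell with the block only (log2 fold change -0.34, adjusted p = 0.0401). Of the 6 fits that left out 1 library, ALPL, PPARG and NRXN3 each failed the threshold in 3, with largest adjusted p-values of 0.0833, 0.0833 and 0.0951.

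A few called genes outside the naming rule were picked after their values were seen. F3, tissue factor, the initiator of blood clotting, was at 324, 659 and 540 CPM in SRF-FOXO1 and at 48.6, 54.6 and 105 CPM in SRF-PDGFRB (log2 fold change 2.98, SE 0.50, adjusted p = 0.0147, with the block 1.19e-05). CAVIN1 and CAV2, which build caveolae, had log2 fold changes of 1.04 and 1.33. AGTR1, the angiotensin II receptor, was at 77.8, 61.3 and 94.3 CPM against 30.02, 23.7 and 38.6 CPM (adjusted p = 0.0139). FGF1 and NRG1, growth factors, had log2 fold changes of 1.96 and 1.56 and adjusted p-values of 0.0201 and 0.0408. THY1, a stromal surface marker, was at 106 to 161 CPM against 38.3 to 59.7 CPM (log2 fold change 1.49, adjusted p = 0.0273). For each of these genes the SRF-PDGFRB difference from pMSCV had an adjusted p of 1, and when 1 library was left out they failed the threshold in between 2 of 6 fits (AGTR1, largest adjusted p 0.0968) and 5 of 6 (NRG1 and THY1, 0.196 and 0.143). The other mesenchymal stromal markers did not follow THY1. NT5E was lower without overlap, at 344 to 521 CPM in SRF-FOXO1 against 588 to 728 CPM (log2 fold change -0.41, adjusted p = 0.394). ENG and VIM had log2 fold changes of 0.09 and 0.35, and NT5E, ENG and VIM passed neither fit.

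Few interferon response genes passed the test, and those that did were lower in SRF-FOXO1. Of 58 genes, all tested, CXCL9 and APOL4 fell and none rose, against 0.151% of all tested genes that fell. With the block 8 fell and none rose, against 1.47%. The median log2 fold change was -0.43 and 53 of 58 were below 0. In TMM-scaled CPM the libraries of 27 of the 58 were lower without overlap, against 9.74% of all tested genes, and 1 was higher. The count of 2 was the same without each of the 6 libraries in turn, and it was 0 when each of the 6 libraries had to hold at least 10 counts, since CXCL9 and APOL4 are then no longer tested.

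CXCL9, a T cell chemokine typical of interferon gamma (chr4:76001275-76007509), had no count in any SRF-FOXO1 library and was at 8.11, 1.24 and 3.10 CPM in SRF-PDGFRB, with 0.0354, 0 and 0.139 CPM in pMSCV. Its mean was at most 0.058 CPM in every group other than SRF-PDGFRB. CXCL9 was thus tested only through the libraries where it was high and could hardly have come out as higher in SRF-FOXO1. Taking 3 counts per library as the limit that 0 allows, it was at least 34.9-fold lower in SRF-FOXO1 (adjusted p = 0.00816, with the block 0.000397). CXCL10, a chemokine of the same receptor, was at 2.92, 2.90 and 2.82 CPM in SRF-FOXO1 and at 59.9, 29.9 and 40.9 CPM in SRF-PDGFRB, and 0.637, 0.043 and 1.87 CPM in pMSCV. The SRF-FOXO1 libraries were alike and all SRF-PDGFRB libraries were far above them, yet CXCL10 passed only with the block (log2 fold change -3.83, SE 0.86, adjusted p = 0.0577, with the block 0.0181). APOL4, an apolipoprotein L (chr22:36189128-36204833), was at 0.671, 0.352 and 1.02 CPM against 6.30, 7.14 and 10.4 CPM, and the vector libraries lay at 0.319 to 0.602 CPM (log2 fold change -3.47, SE 0.40, adjusted p = 0.00154, with the block 4.25e-05).

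IDO1, the tryptophan-degrading enzyme, was at 3.25, 0.117 and 1.02 CPM in SRF-FOXO1 and at 21.4, 5.56 and 14.9 CPM in SRF-PDGFRB. In each group replicate 1 was the highest and replicate 2 the lowest, and IDO1 fell only with the block (adjusted p = 0.186, with the block 0.000165). GBP4, RSAD2, IRF1 and APOL1 also fell with the block, at log2 fold changes of -0.93, -2.44, -0.56 and -0.72 in that fit. GBP5 and ISG15 are examples of members that passed neither fit. ISG15, a ubiquitin-like protein, had a log2 fold change of -0.03. GBP5, a guanylate-binding protein, was at 27.6, 23.7 and 22.2 CPM against 79.7, 55.0 and 58.4 CPM without overlap (adjusted p = 0.137, with the block 0.0808). RSAD2, IRF1, ISG15 and GBP5 are named outside the naming rule, after their values were seen.

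The MHC class II genes that passed were lower in SRF-FOXO1. Of 13 listed genes 6 were tested, and HLA-DRA, HLA-DPA1 and CD74 fell, against 0.151% of all tested genes. With the block CIITA fell too, against 1.47%, and none rose. HLA-DRA had a mean of at most 0.0359 CPM in every group other than SRF-PDGFRB. It was thus tested only through the libraries where it was high and could hardly have come out as higher in SRF-FOXO1. The counts of this list are therefore partly set by the filter. CD74, the invariant chain (chr5:150401639-150412910), was at 1.71, 1.80 and 1.71 CPM in SRF-FOXO1 and at 12.3, 5.94 and 12.8 CPM in SRF-PDGFRB, with 3.22, 1.33 and 2.87 CPM in pMSCV (log2 fold change -2.48, SE 0.37, adjusted p = 0.00816, with the block 0.000137). HLA-DRA, the alpha chain of HLA-DR (chr6:32439887-32445046), had 2 counts over the SRF-FOXO1 libraries and 121 over the SRF-PDGFRB libraries, which were at 2.44, 0.618 and 1.70 CPM. The ratio of its summed CPM was 60.3 (95% counting interval 16.3 to 503.6; adjusted p = 0.011, with the block 0.000535). CIITA was at 0.772, 1.14 and 0.971 CPM against 2.54, 2.33 and 2.74 CPM, tight in both groups and without overlap (log2 fold change -1.31, SE 0.30, adjusted p = 0.0577, with the block 0.0067). The CD74 call held without each library in turn, whereas HLA-DRA reached 0.0507 without SRF-PDGFRB replicate 1 and HLA-DPA1 lost the call in 5 of 6 such fits (largest adjusted p 0.185). The CIITA call with the block was lost in each of the 3 fits that left out the libraries of 1 number in all groups (largest adjusted p 0.0914).

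All these MHC class II levels were low, and 7 of the 13 genes, HLA-DRB1 and HLA-DQA1 among them, were at most at 0.905 CPM. None of 17 tested MHC class I and antigen processing genes passed in either fit, at a median of -0.01. Leukocyte markers were at or near 0 in both groups: CD3E had no count, and the summed level of the 6 leukocyte markers was 0.139 to 0.302 CPM in SRF-FOXO1 and 0.310 to 0.383 CPM in SRF-PDGFRB. Endothelial markers summed to 7.16 to 15.5 CPM against 16.02 to 22.1 CPM, mostly PECAM1, and none of the 4 passed; their part in the MHC class II difference was not tested.

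Among 14 tested STAT5 target and SOCS feedback genes CISH fell, and with the block SOCS1 and SOCS2 fell too. None of the 14 rose. Over all tested genes 0.151% fell without the block and 1.47% with it. CISH, a feedback inhibitor of cytokine receptors (chr3:50606489-50611774), was at 2.75, 3.21 and 3.84 CPM in SRF-FOXO1, at 7.97, 11.2 and 10.1 CPM in SRF-PDGFRB and at 3.04, 3.83 and 3.39 CPM in pMSCV. SRF-FOXO1 and the vector overlapped, and SRF-PDGFRB lay above both. The log2 fold change was -1.50 between the fusions (SE 0.23, adjusted p = 0.00816, with the block 0.000178), 0.01 for SRF-FOXO1 against pMSCV (adjusted p = 0.987) and 1.51 for SRF-PDGFRB against pMSCV (adjusted p = 0.0379, with the block 0.00147). The CISH call between the fusions held without each of the 6 libraries in turn (largest adjusted p 0.0428). SOCS2, a feedback inhibitor of growth hormone signalling, was at 5.13, 6.62 and 12.4 CPM against 17.7, 36.5 and 63.3 CPM, and in both groups replicate 1 was the lowest and replicate 3 the highest (log2 fold change -2.19, SE 0.73, adjusted p = 0.200, with the block 0.000331). SOCS1, which dampens interferon signalling, was at 6.21, 3.25 and 5.64 CPM against 9.12, 13.9 and 21.02 CPM (adjusted p = 0.0791, with the block 0.00204). SOCS3, PIM1 and BCL6, other targets on the list, passed neither fit.

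TTCNNNGAA, the motif printed above in the CISH window, is present in 1 of the 21 windows of the 28 lower genes (4.76%), in 3 of 64 of the higher genes (4.69%) and in 5.82% of those of tested genes. Of the 41 interferon genes with a window, 12 (29.3%) hold it. CXCL9, SOCS1 and CD74 have no match in this window.

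**Figure D3:**
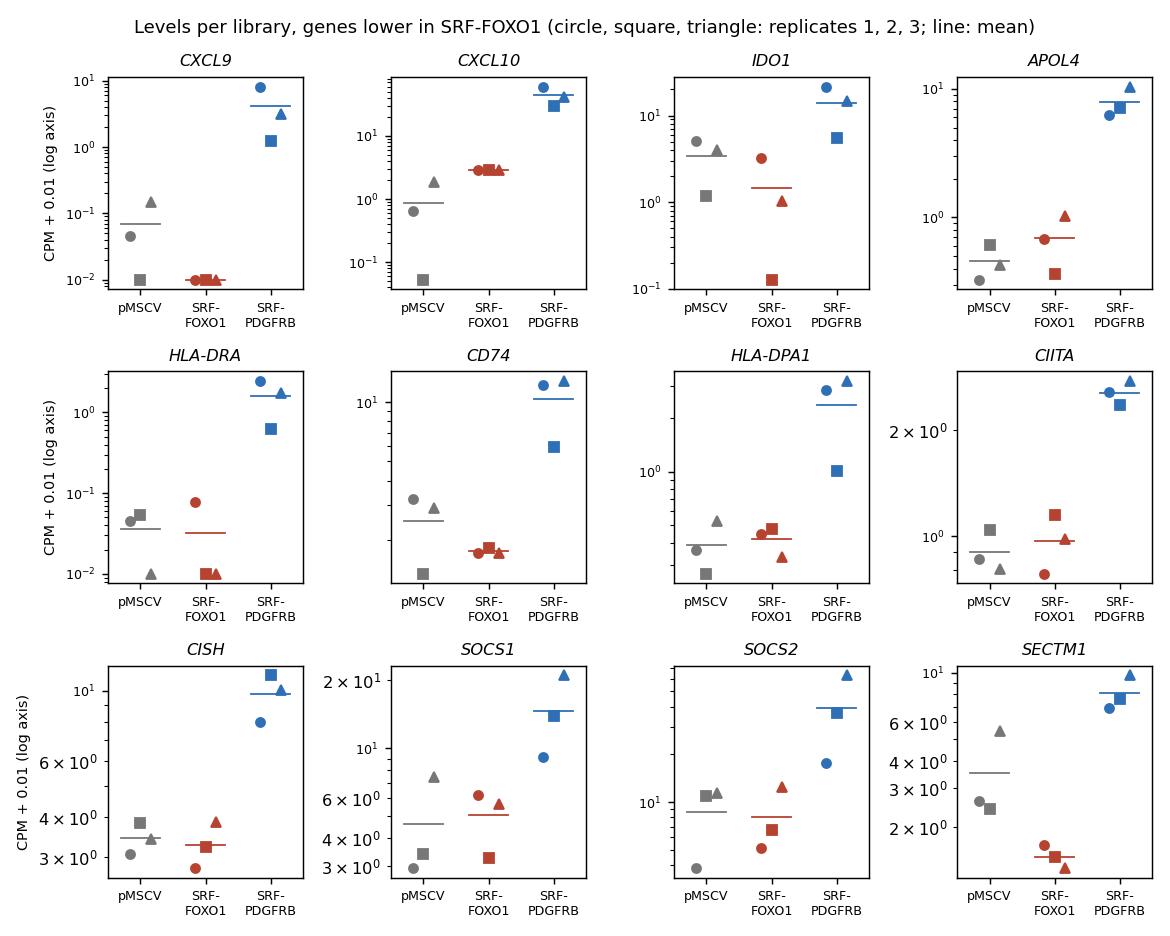
CPM plus 0.01 on a log axis in pMSCV (grey), SRF-FOXO1 (red) and SRF-PDGFRB (blue) for 12 genes lower in SRF-FOXO1; circles, squares and triangles are replicates 1, 2 and 3, and lines are group means. For CISH the red and grey points overlap near 3 CPM and the blue points start at 7.97 CPM; CXCL9 was 0 in all red points.

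The other ranked lower genes included ALOX5AP, which hands arachidonic acid to 5-lipoxygenase. It was at 2.15, 0.470 and 1.11 CPM in SRF-FOXO1 and at 7.14, 6.04 and 12.1 CPM in SRF-PDGFRB, with 1.24, 1.81 and 2.22 CPM in pMSCV (log2 fold change -2.67, SE 0.40, adjusted p = 0.00816, with the block 0.000535). SECTM1, a secreted ligand of CD7, was at 1.64, 1.45 and 1.30 CPM against 6.89, 7.55 and 9.71 CPM (log2 fold change -2.37, SE 0.35, adjusted p = 0.00816). Both calls held without each library in turn. PTHLH, parathyroid hormone-related protein, was at 6.64, 3.21 and 4.12 CPM against 11.4, 14.5 and 13.996 CPM (log2 fold change -1.44, adjusted p = 0.0199), and its call was lost in 5 of 6 such fits (largest adjusted p 0.102). ANK3, ADAMTS12, FLRT2, PIK3CD, RESF1, C15orf62 and USP6NL were lower by smaller amounts, with log2 fold changes between -1.21 and -0.64, and each failed the threshold in 3 to 5 of the 6 fits. Against pMSCV, FLRT2, a membrane protein of cell guidance, was at -0.85 in SRF-FOXO1 (adjusted p = 0.0226) and -0.04 in SRF-PDGFRB (adjusted p = 1).

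The contrasts with the vector group, which share the pMSCV libraries, are given for a few genes side by side. Against pMSCV 172 genes (0.928%) passed for SRF-FOXO1 and 6 (0.0324%) for SRF-PDGFRB. ACTG2 was at 6.26 (adjusted p = 0.00625) in SRF-FOXO1 and 1.69 (adjusted p = 1) in SRF-PDGFRB on the log2 scale. CMKLR1 was at 7.43 (adjusted p = 0.000594) and 2.05 (adjusted p = 1, with the block 0.0159). APOL4 was at 0.67 (adjusted p = 0.480) in SRF-FOXO1 and 4.15 (adjusted p = 0.000501) in SRF-PDGFRB, and HLA-DRA at 0.09 (adjusted p = 0.985) and 5.72 (adjusted p = 0.0379). FLRT2, above, and RESF1, at -0.83 (adjusted p = 0.041) in SRF-FOXO1 and 0.16 (adjusted p = 1) in SRF-PDGFRB, are lower genes with the larger difference in SRF-FOXO1. The direct test of each of these differences is the comparison of the fusions given above.

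**Figure D4:**
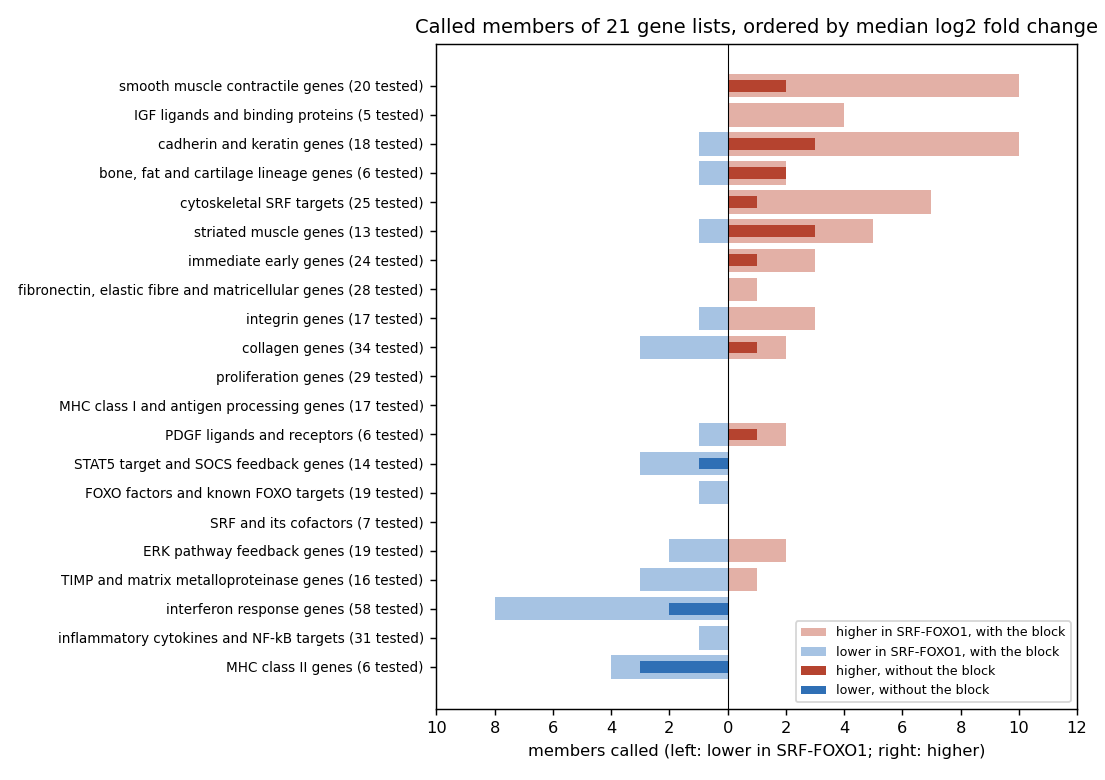
Number of members called in each of 21 gene lists, to the right for higher and to the left for lower in SRF-FOXO1, with the lists ordered by median log2 fold change. Dark bars are calls without the replicate block and pale bars calls with it; the smooth muscle list has 2 and 10 higher calls, the interferon list 2 and 8 lower calls.

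Genes that passed only with the block extended both directions. The largest higher ones with a mean of at least 3 log2 CPM included ANKRD1, a stretch-responsive muscle protein, TENM2, a teneurin adhesion molecule, VSIR, an immune checkpoint receptor, and ASPN, a small leucine-rich matrix protein. ANKRD1 was at 24.3, 198 and 51.8 CPM in SRF-FOXO1 and at 2.30, 17.6 and 9.50 CPM in SRF-PDGFRB, with replicate 2 the highest in both (adjusted p = 0.188, with the block 0.00654). VSIR was at 18.5, 71.2 and 49.0 CPM against 5.95, 7.41 and 10.3 CPM (adjusted p = 0.0556, with the block 0.00275). The largest lower ones included C3, the central complement component, at 47.3, 33.2 and 39.2 CPM against 126.6, 479.7 and 490.7 CPM, and PAPPA, a protease that cleaves IGF-binding proteins, at 12.3, 14.6 and 13.1 CPM against 42.2, 113 and 67.1 CPM. Both had SRF-FOXO1 libraries close together and SRF-PDGFRB libraries spread above them (adjusted p = 0.122 and 0.135, with the block 0.0429 and 0.0195). LRRC15, a stromal surface protein, TNFRSF11B, the decoy receptor osteoprotegerin, EPHA7 and COL10A1 also fell with the block. Their log2 fold changes in that fit were -2.16, -2.02, -1.78 and -1.85.

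Matrix and growth factor lists held few calls, in both directions. Of all tested genes 0.566% rose and 0.151% fell, and with the block 2.87% rose and 1.47% fell. Of 34 tested collagen genes COL11A1 rose; with the block COL18A1 also rose and COL10A1, COL24A1 and COL27A1 fell. Of 5 tested IGF ligands and binding proteins none passed without the block (1 passed without SRF-FOXO1 replicate 1), and IGFBP3, IGFBP5, IGFBP6 and IGFBP7 rose with it. IGFBP5 was at 85.9, 39.5 and 163 CPM against 21.6, 6.28 and 27.7 CPM (log2 fold change 2.45, SE 0.56, adjusted p = 0.0608, with the block 0.0157). Of 16 tested TIMP and matrix metalloproteinase genes TIMP4 rose and MMP2, MMP14 and MMP16 fell, with the block only. MMP14, a membrane-bound collagenase, was at 4504, 1704 and 2262 CPM against 6303, 3706 and 4379 CPM (adjusted p = 0.452, with the block 0.0343). Of 28 tested fibronectin, elastic fibre and matricellular genes only THBS1 rose with the block (adjusted p = 0.0752 without it, 0.0122 with it). That share is near the 2.87% of all tested genes. Of 17 tested integrins ITGA5, ITGA7 and ITGB3 rose and ITGB8 fell with the block only.

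The proliferation, FOXO and inflammatory lists held no call without the block. For all tested genes the share that fell was 0.151%, and 1.47% with the block. None of 29 proliferation genes passed in either fit, at a median log2 fold change of 0.14. Of 19 tested FOXO factors and targets none passed without the block, and FBXO32, a muscle ubiquitin ligase known as a FOXO target, fell with it (log2 fold change -0.69, adjusted p = 0.596, with the block 0.00739). FBXO32 was at 163, 48.3 and 64.4 CPM against 257, 92.0 and 114 CPM, so replicate 1 was the highest in both groups. Among 31 inflammatory cytokine and NF-kB target genes none passed without the block although 28 fold changes were below 0, at a median of -0.62. CCL8, a monocyte chemokine, fell with the block, with 4 counts over the SRF-FOXO1 and 157 over the SRF-PDGFRB libraries and a ratio of summed CPM of 39.1 (95% counting interval 15.0 to 145; adjusted p = 0.0966, with the block 0.0291).

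For the lists with no call without the block, the count at an unadjusted p under 0.05 in edgeR was 0 for SRF and its cofactors and for proliferation genes, 2 for MHC class I, 5 each for ERK feedback, FOXO and integrin genes, 6 each for inflammatory and matricellular genes, 4 for TIMP and metalloproteinase genes and 3 for IGF genes. Over all 18544 tested genes 1608 were higher and 1141 lower at this threshold, so counts of this size are not read as results about the lists. DESeq2's Wald test without the block called 0 SRF cofactors, MHC class I and proliferation genes, 1 each of the FOXO, matricellular and metalloproteinase lists, 2 each of the ERK feedback and inflammatory lists and 3 each of the IGF and integrin lists. Over all 18544 tested genes that test called 474.

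The 6 libraries held 19362319 to 29806771 counts, with TMM factors from 0.917 to 1.06. Mitochondrial genes took 4.52% to 5.23% of counts, and FN1, the most abundant gene, 2.41% to 5.90%. Counting intervals and limits cover counting error only. Without the block 1608 genes were higher and 1141 lower at an unadjusted p under 0.05. The plot of calls by setting shows how far the count of genes moved between fits.

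**Figure D5:**
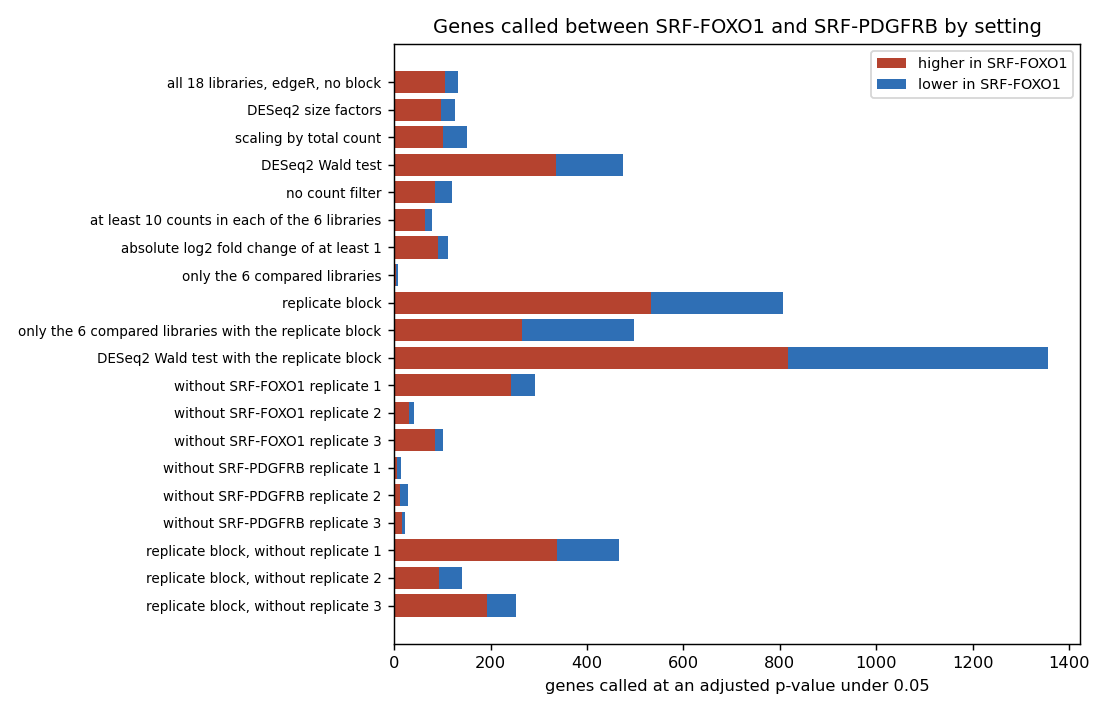
Number of genes called at an adjusted p-value under 0.05 in each fit, higher in SRF-FOXO1 in red and lower in blue. The count runs from 8 when only the 6 compared libraries enter the fit without the block to 1355 with DESeq2's Wald test and the block.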

How the data were processed

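The study holds 18 RNA libraries from MSC-hTERT cells, in 6 groups of 3. Per the labels' protocols, total RNA was treated with DNase and made into TruSeq Stranded mRNA libraries for an Illumina NovaSeq instrument. The authors deposited raw counts per Ensembl gene identifier; the submitters' processing notes name FastQC 0.11.8, Trimmomatic 0.39, HISAT2 2.12.1, featureCounts, Subread 2.0.3 and GRCh38. Which gene annotation was counted, and whether by strand, is not given in the sources used here, so reads of overlapping or near-identical genes could be split between them. Totals over all libraries ran from 19362319 to 29806771 counts.

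Of the identifiers, 61369 found a symbol in a gene name table, 105 only in GENCODE release 29, and 13 in neither. Positions, promoter windows and gene types are RefSeq's in GRCh38.p14. Counts were filtered with edgeR 4.0.16 (filterByExpr, minimum count 10; R 4.3.3), scaled by TMM and fitted over all 18 libraries with a robust quasi-likelihood model (12 residual degrees of freedom, common biological coefficient of variation 0.225; with the replicate number as a block 10 and 0.150). Tests are two-sided F tests with Benjamini-Hochberg adjustment over 18544 genes, and a gene was called under 0.05. Standard errors are the absolute log2 fold change divided by the square root of F. Log2 fold changes, their standard errors and list medians are from the fit without the block, except where a value is given as one with the block. CPM values use the library total alone, without TMM factors. The code of the fit was run on simulated counts with the same spread for all genes, which does not show how well calls hold in these data.

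Replicate numbers pair the libraries by their values, not by the labels: deviations from the group means correlated at 0.381, 0.360 and 0.354 for the 3 same-numbered pairs and between -0.257 and -0.079 for the others. Deviations from a group mean cancel within the group, so positive values for the same-numbered pairs force negative values among the others. Replicates within a group differed by more than sampling noise.

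The genes and lists were chosen with earlier results of these data known. Named genes are the construct genes, a panel of muscle genes with CISH, up to 12 called genes per direction with non-overlapping libraries by size of change (mean of at least 1 log2 CPM), all called list members, up to 3 members per list and direction called only with the block, and up to 8 such genes per direction (mean of at least 3 log2 CPM). Names outside this rule were chosen after their values were seen: F3, CAVIN1, CAV2, AGTR1, FGF1, NRG1 and THY1, and list members given as not called or to complete a count. A few list members are not reported here by name. Alternatives were DESeq2 1.42.0 size factors and Wald test, total-count scaling, other filters, a fold minimum, only the compared libraries, the block, and leaving out libraries; DESeq2 with the block was added after seeing the data.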

Additional observations from a re-analysis of the deposited data

How the results depend on the processing

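Without the block 133 genes were called. The count was 127 with DESeq2 size factors, 151 with scaling by total count, 120 without a count filter and 111 with a log2 fold change of 1 or more in size required. It was 474 with DESeq2's Wald test, 79 when each of the 6 libraries had to hold at least 10 counts and 8 (4 higher, 4 lower) when only the 6 compared libraries were fitted. With the replicate block it was 806, with the block and only the 6 libraries 498, and with DESeq2's Wald test and the block 1355. Leaving out 1 library gave 14 to 292, and leaving out the libraries of 1 number in all groups under the block 141, 252 and 467. When 1 library was left out, the log2 fold change of FOXO1 ran from -0.63 to 0.13 and that of MYLK from -0.77 to 0.037, each above 0 only without SRF-PDGFRB replicate 1; with the block MYLK was at 0.17 without the libraries numbered 1. Neither gene passed a test. The cause of these differences was not tested. Each group held 3 libraries, and calls near the threshold depended on single libraries of either group. The SRF-FOXO1 libraries differed widely in muscle genes, and the part of this spread in the lost calls was not tested. For CXCL9 and HLA-DRA depth limits the SRF-FOXO1 level, at 0 and 2 counts over the 3 libraries.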
